A study of Mus musculus with 8 samples.

Results

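Genes of prostaglandin synthesis, inactivation and reception were examined in cultured kidney tubular epithelial cells with and without Aldh2, the mitochondrial aldehyde dehydrogenase. The genes were chosen by symbol. Of the 10 named, 9 have a row among the 14145 genes of the table: Pla2g4a, Ptgs1, Ptgs2, Ptges, Ptges2, Ptges3, Ptgis, Hpgd and Ptger4. Ptger1 has no row and is not analysed here. The control group holds 4 libraries of primary tubular cells from Aldh2Ctrl mice, labelled WT, and the knockout group holds 4 libraries from Aldh2TEC-KO mice. All were isolated from kidney, grown in the same serum-containing medium and left without treatment. The genotype field gives the 4 knockout samples running gene names (ALDH2 to ALDH5), so groups were taken from the titles. The labels name neither the driver of the deletion nor the age, strain or sex of the mice. Whether each library came from its own animal is also not stated, and the p-values below therefore reflect variation among libraries that could be technical.

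Prostaglandins are short-lived lipid signals made from arachidonic acid. A phospholipase frees the fatty acid from membranes, a cyclooxygenase turns it into prostaglandin H2, and terminal synthases convert that intermediate into prostaglandin E2, prostacyclin and the other prostanoids. The products leave the cell, act on G protein coupled receptors, and are inactivated by oxidation after uptake. In the kidney they are known for adjusting blood flow, renin release and the handling of salt and water. Ptgs1 is regarded as the constitutive cyclooxygenase and Ptgs2 as the one induced by cytokines, growth factors and tonicity.

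The upstream sequences of both cyclooxygenase genes are shown because they catalyse the same step and their ratio varied between libraries. Each is the 250 bases before the annotated start, on the plus strand, from RefSeq on GRCm38.p6, and both windows end at the base before the GENCODE M21 start of the gene. The Ptgs2 window is chr1:150099781-150100030 and the Ptgs1 window is chr2:36230176-36230425. Capitals mark a GC box (GGGCGG) and a C/EBP motif (TTGCGNAA), searched on both strands.
Ptgs2: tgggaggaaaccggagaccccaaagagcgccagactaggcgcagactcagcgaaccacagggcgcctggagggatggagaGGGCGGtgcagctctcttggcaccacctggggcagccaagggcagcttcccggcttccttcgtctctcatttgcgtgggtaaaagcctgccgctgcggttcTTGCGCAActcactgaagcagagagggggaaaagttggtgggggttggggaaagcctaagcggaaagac
Ptgs1: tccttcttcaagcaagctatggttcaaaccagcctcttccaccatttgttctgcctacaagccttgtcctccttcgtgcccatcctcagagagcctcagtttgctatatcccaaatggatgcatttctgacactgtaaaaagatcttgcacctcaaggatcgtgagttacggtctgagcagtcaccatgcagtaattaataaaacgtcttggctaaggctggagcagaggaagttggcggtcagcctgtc
The Ptgs2 window held 1 GC box at positions -170 to -165 and 1 C/EBP motif at -69 to -62, counted back from the start. The Ptgs1 window held neither. Of 27025 promoter windows of the same length, 32.9% held the GC box and 0.67% the C/EBP motif. Neither window held a TATA box (TATAAA, found in 13.0% of the windows), a CCAAT box (found in 34.5%) or an E-box (CACGTG, found in 6.05%). Both also lacked the core of the cyclic AMP element (TGACG, in 17.9% of all windows) and the NF-kB motif (in 4.0%). The G and C content was 61.6% for Ptgs2 and 48.0% for Ptgs1, against a median of 52.0%. The motifs were chosen with the Ptgs2 sequence in view, and a match or its absence describes the letters of these windows alone. Bases after the annotated start were not searched, so an absence here does not show that the promoter lacks the motif.

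The libraries were first compared as wholes. Depth was 17040000 to 18750000 reads or fragments per library. Aldh2 read 23.69 to 31.08 FPKM (reads or fragments scaled to gene length and library depth) in the controls and 0.88 to 1.64 FPKM in the knockouts, in the direction of the labels (log2 fold change -3.61, limma adjusted p = 3.43e-05). Knockout 1, 3 and 4 lay further from the controls than any control library did, and knockout 2 lay within the control range. The distance includes any shift between the groups. Over all genes the root mean square distance from the controls, on log2(FPKM + 1), was 0.25 to 0.52 for the control libraries, each set against the other controls, and 0.67, 0.51, 0.78 and 0.62 for knockout 1 to 4. Xist and Y-linked transcripts mark knockout 1 and 2 as female and the other 6 libraries as male, so sex and a pair of knockout libraries cannot be told apart. Markers of tubular epithelium were all present (8 of 8 measured), with sums of 1390.0 to 3020.0 FPKM in controls and 831.0 to 6190.0 FPKM in knockouts. Epcam, an adhesion protein of epithelia, read 85.71 to 159.34 against 27.37 to 107.36 FPKM, while the keratin Krt8 was highest in knockout 3, at 3553.02 FPKM. Of 10 proximal tubule markers 7 had no row, among them Slc34a1. Loop of Henle and distal tubule markers (4 of 10 measured) summed to 8.18 to 37.8 FPKM in controls and 2.84 to 7.42 FPKM in knockouts, and collecting duct markers (5 of 10) to 30.4 to 43.2 and 7.61 to 34.0 FPKM. Endothelial markers (4 of 8) summed to 5.62 to 8.36 and 1.97 to 3.83 FPKM, without overlap. The largest part in every library was Eng (3.59 to 5.48 and 0.94 to 2.57 FPKM). Esam (0.63 to 1.13 and 0.09 to 0.43 FPKM) did not overlap either, but Flt1 and Emcn did. Fibroblast and pericyte markers (7 of 10) summed to 134.0 to 1180.0 and 593.0 to 1780.0 FPKM, most of it Acta2, a contractile actin (98.4 to 726.39 and 560.69 to 1745.55 FPKM). The means of 5 of these 7 were lower in the knockouts (median log2 difference -1.4), and Pdgfrb, a pericyte receptor, read 3.62 to 17.25 against 0.65 to 2.62 FPKM. Macrophage and leukocyte markers (12 of 12 measured) summed to 1030.0, 91.0, 105.0 and 119.0 FPKM in control 1 to 4, against 577.0, 1700.0, 225.0 and 1100.0 FPKM in knockout 1 to 4. Lyz2 made up much of the larger sums (674.09 FPKM in control 1, 990.32 FPKM in knockout 2), and Cd14 most of that in control 4 (71.65 FPKM). The means of 11 of the 12 were higher in the knockouts, where 44.5% of all genes were (median log2 difference 1.74). No macrophage marker was at 0 in every library, and the part of these other cells in the results was not tested. In such bulk cultures fewer cells of a type and less RNA per cell cannot be told apart.

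No member passed the test across all genes. By limma on log2(FPKM + 1), 0 of the 9 had a Benjamini-Hochberg adjusted p below 0.05, where 0.0778% of all genes passed (11 of 14145). At an unadjusted p below 0.05 there were 2, against 19.2% of all genes. They were Ptgs2, which was lower (as were 11.6% of all genes at that threshold), and Hpgd, which was higher (7.58% of all genes). Group means were lower in the knockouts for 6 members and higher for 3, and the median log2 difference was -0.35, against -0.06 for all genes. In no member were the groups free of overlap (0 of 9, against 11.6% of all genes). Limma-voom on the recovered reads also called 0 members, and with sample quality weights it called 5 of 9, where 53.1% of all genes passed.

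**Figure D1:**
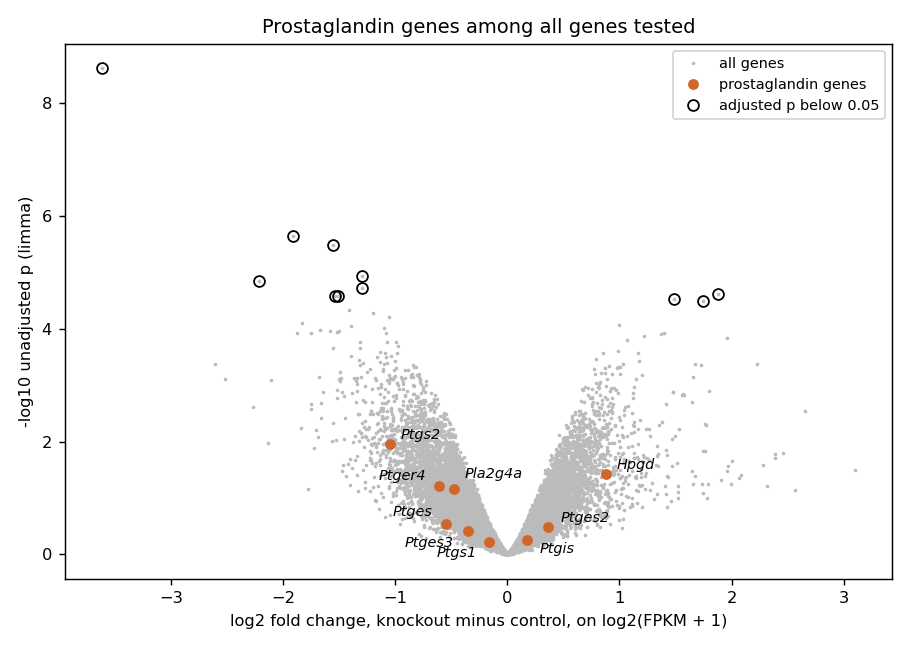
Each point is a gene, with the log2 fold change (knockout minus control, on log2(FPKM + 1)) on the x axis and -log10 of the unadjusted limma p on the y axis. The 9 prostaglandin genes (orange) lie among the bulk of genes (grey) and below the 11 genes with an adjusted p below 0.05 (black rings).

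Release of arachidonic acid starts with Pla2g4a, the cytosolic calcium-dependent phospholipase A2 (ENSMUSG00000056220, chromosome 1, 149829618 to 149961290, minus strand; GRCm38 as for all genes here). It read 6.52, 7.11, 6.47 and 5.13 FPKM in control 1 to 4, against 4.76, 6.53, 2.74 and 3.62 FPKM in knockout 1 to 4. Knockout 1, 3 and 4 lay below every control, and knockout 2 lay within their range. Mean levels were 6.31 ± 0.841 and 4.41 ± 1.64 FPKM (SD, n = 4 each), a log2 fold change of -0.47 (SE 0.23, limma adjusted p = 0.293). After correction of each library for a trend on length and GC the Pla2g4a value was -0.15.

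Neither cyclooxygenase passed the test, and a difference between their changes was not tested. Ptgs2, the inducible enzyme (ENSMUSG00000032487, chromosome 1, 150100031 to 150108227, plus strand), read 14.98, 20.65, 25.45 and 9.43 FPKM in the controls, against 12.17, 8.35, 6.45 and 4.75 FPKM in the knockouts. All 4 knockouts lay below the control median, and the groups met only where control 4 fell below knockout 1. The mean was 17.6 ± 6.94 FPKM in controls and 7.93 ± 3.18 FPKM in knockouts, which is 45.0% of the control level. The log2 fold change of Ptgs2 was -1.04 (SE 0.33, 95% interval -1.79 to -0.3, unadjusted p = 0.0112, limma adjusted p = 0.177), and 6.31% of all genes had a lower p. It was negative in each of the 20 alternative analyses, between -1.92 and -0.66. These reuse the same libraries, so the shared sign is no further evidence. The adjusted p ranged from 0.00115 to 0.448. The lowest came from limma-voom with sample weights, where 53.1% of all genes passed.

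Ptgs1, the constitutive enzyme (ENSMUSG00000047250, chromosome 2, 36230426 to 36252272, plus strand), read 13.19, 10.19, 9.67 and 14.64 FPKM in the controls, against 7.08, 19.92, 7.19 and 11.22 FPKM in the knockouts. Knockout 2 was the highest of the 8 libraries and knockout 1 and 3 the lowest. Mean levels were 11.9 ± 2.38 and 11.4 ± 6.03 FPKM (SD, n = 4 each), and the log2 fold change of Ptgs1 was -0.16 with a 95% interval from -0.85 to 0.52 (limma adjusted p = 0.775). The interval spans losses and gains, so equal levels are not shown. Knockout 2 also had the largest sum of macrophage markers (1700.0 FPKM), but the order differed elsewhere. Control 4, the highest control for Ptgs1, had a sum of 119.0 FPKM, and control 1, the next, 1030.0 FPKM. Knockout 1, the lowest library for Ptgs1, had 577.0 FPKM. The part of such cells in the Ptgs1 level was not tested.

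The balance of the pair differed from library to library. The ratio of Ptgs2 to Ptgs1 FPKM was 1.14, 2.03, 2.63 and 0.644 in control 1 to 4, against 1.72, 0.419, 0.897 and 0.423 in knockout 1 to 4. Ptgs2 exceeded Ptgs1 in 3 of 4 controls and in knockout 1 alone among the knockouts. The summed FPKM of both genes was 24.1 to 35.1 in the controls and 19.2, 28.3, 13.6 and 16.0 in the knockouts, so only knockout 2 reached the control range.

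**Figure D2:**
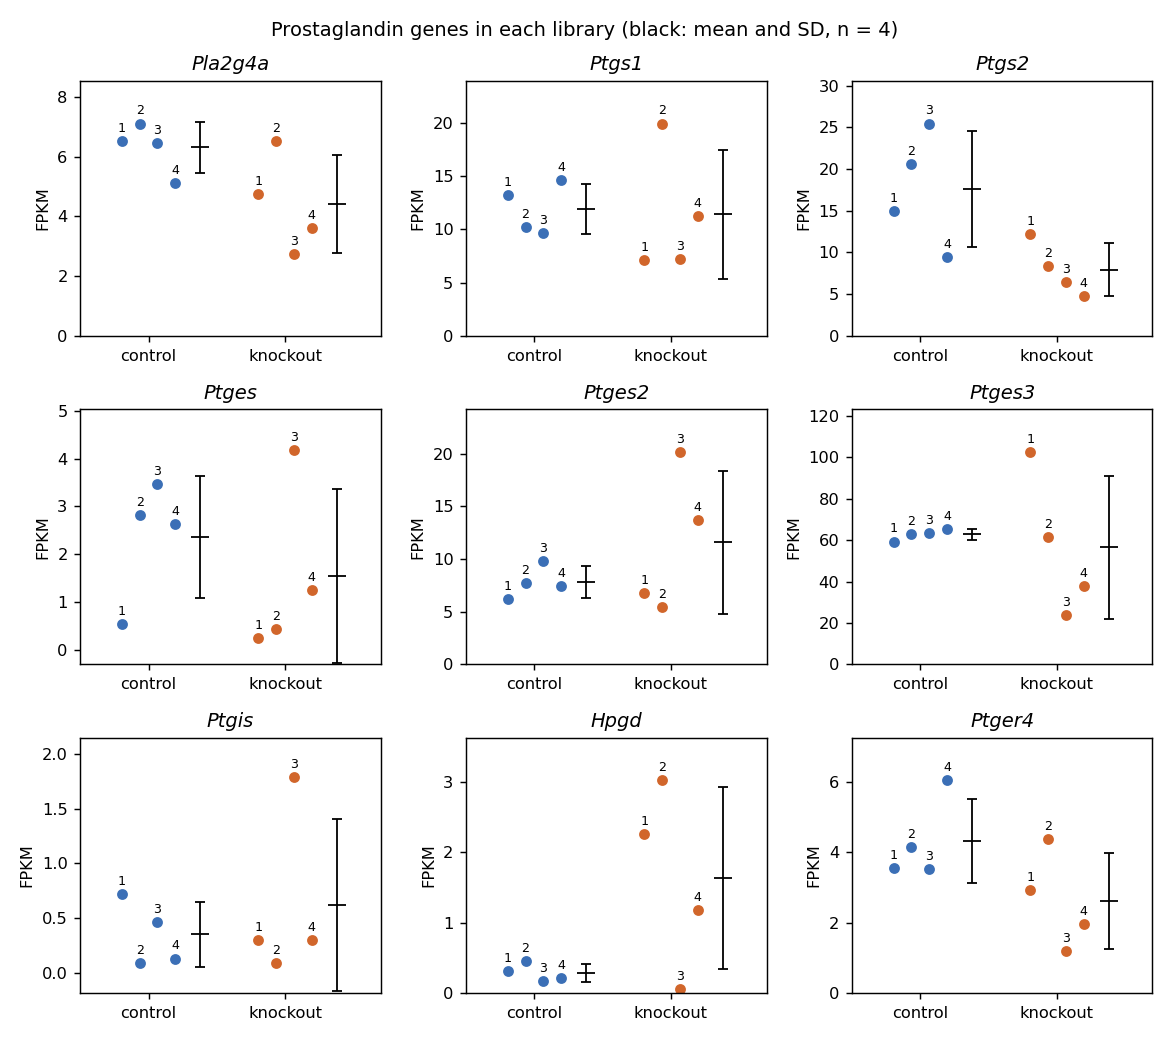
FPKM of the 9 members, 1 panel each with its own y axis, for the 4 control (blue) and 4 knockout (orange) libraries, numbered by replicate, with group mean and SD in black (n = 4). Ptgs2 in the knockouts lies at 4.75 to 12.17 against 9.43 to 25.45 FPKM in the controls, and Ptges3 is tight in the controls and spread in the knockouts.

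The 3 prostaglandin E synthases differed in level and in pattern. Ptges, the inducible microsomal synthase that is usually paired with Ptgs2 (ENSMUSG00000050737, chromosome 2, 30889471 to 30929863, minus strand), read 0.53, 2.82, 3.47 and 2.64 FPKM in the controls, against 0.25, 0.44, 4.19 and 1.26 FPKM in the knockouts. Control 1 was low and knockout 3 was the highest of all, so the groups overlapped (log2 fold change -0.54, SE 0.48, limma adjusted p = 0.529). These levels stand for 18 to 309 reads per library. Without knockout 3 and 4 the value of Ptges was -1.22 (adjusted p = 0.249), and without knockout 1 and 2 it was 0.13 (adjusted p = 0.85). The former sets female knockouts against male controls, so genotype and sex cannot be told apart there.

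Ptges2, the synthase linked to the Golgi membrane (ENSMUSG00000026820, chromosome 2, 32395896 to 32405772, plus strand), read 6.23, 7.72, 9.84 and 7.45 FPKM in the controls, against 6.82, 5.49, 20.17 and 13.73 FPKM in the knockouts. Knockout 3 and 4 lay above every control, knockout 1 within their range and knockout 2 below it. Mean levels were 7.81 ± 1.5 and 11.6 ± 6.79 FPKM (SD, n = 4 each; log2 fold change 0.36, SE 0.35, limma adjusted p = 0.569).

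Ptges3, the cytosolic synthase that also serves as the p23 cochaperone of the Hsp90 chaperone (ENSMUSG00000071072, chromosome 10, 128058954 to 128077272, plus strand), was the most abundant member in every library. It read 59.39, 62.9, 63.5 and 65.45 FPKM in the controls, the tightest control values of any member on the log2 scale. In the knockouts it read 102.64, 61.52, 23.83 and 38.07 FPKM, with knockout 1 above all controls and knockout 3 and 4 below them. The log2 fold change was -0.35 (SE 0.38, limma adjusted p = 0.606). The table also lists a pseudogene, Ptges3-ps, at 68.88 to 105.49 FPKM in controls and 81.13, 74.41, 28.88 and 42.23 FPKM in knockout 1 to 4. How shared reads were assigned between Ptges3 and such copies is not stated in the labels, so both levels are uncertain.

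Ptgis, the prostacyclin synthase (ENSMUSG00000017969, chromosome 2, 167191805 to 167240604, minus strand), was near the lower end of the table. It read 0.72, 0.09, 0.46 and 0.13 FPKM in the controls, against 0.3, 0.09, 1.79 and 0.3 FPKM in the knockouts, or 4 to 86 reads per library. Only knockout 3 lay above the controls (log2 fold change 0.18, SE 0.3, limma adjusted p = 0.747), and without knockout 3 the value was -0.12. The 95% interval of the Ptgis change ran from -0.49 to 0.85.

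Inactivation of prostaglandins is represented by Hpgd, the dehydrogenase that oxidises their hydroxyl group (ENSMUSG00000031613, chromosome 8, 56294585 to 56321043, plus strand). It read 0.31, 0.45, 0.17 and 0.21 FPKM in the controls, against 2.26, 3.02, 0.06 and 1.18 FPKM in the knockouts. Knockout 1, 2 and 4 lay above every control, and knockout 3 below them all. In recovered reads these are 9, 13, 5 and 6 against 70, 91, 2 and 36. Mean levels were 0.284 ± 0.128 and 1.63 ± 1.29 FPKM (SD, n = 4 each), a ratio of 5.74, and the log2 fold change of Hpgd was 0.88 (SE 0.36, 95% interval 0.06 to 1.69, unadjusted p = 0.0379, limma adjusted p = 0.24). With a pseudocount of 0.1 in place of 1 the Hpgd value was 1.59. Without knockout 3 and 4 it was 1.5 (limma adjusted p = 0.059), a fit of female knockouts against male controls, where genotype and sex cannot be told apart. Without knockout 1 and 2, with male libraries alone, it was 0.25 (limma adjusted p = 0.513). The adjusted p of Hpgd lay between 0.059 and 0.522 over the alternatives.

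Among receptors, Ptger4, the EP4 receptor that couples prostaglandin E2 to cyclic AMP (ENSMUSG00000039942, chromosome 15, 5206661 to 5244187, minus strand), read 3.55, 4.15, 3.52 and 6.05 FPKM in the controls. In the knockouts it read 2.92, 4.38, 1.2 and 1.96 FPKM. Knockout 1, 3 and 4 lay below every control, and knockout 2 lay within the control range. Mean levels were 4.32 ± 1.2 and 2.61 ± 1.37 FPKM (SD, n = 4 each), with a log2 fold change of -0.61 (SE 0.29, 95% interval -1.25 to 0.03, limma adjusted p = 0.279). After the length and GC correction the Ptger4 value was -0.26. A pseudogene on the other strand, Gm15937, covers 15.3% of its exon bases, and without strand information reads from both cannot be told apart.

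The order of levels was similar across libraries. Ptges3 ranked first of the 9 members in all 8 libraries and made up 35.2% to 73.7% of their summed FPKM. In the controls Ptgs2 and Ptgs1 held ranks between 2 and 4, and their mean ± SD ranges overlapped. By control mean Ptges2, Pla2g4a and Ptger4 followed, and within that order only Ptges3 from Ptgs2, Ptgs1 from Ptges2 and Ptges from Ptgis were separated by more than their SD ranges. In the knockouts only Ptges3 was separated from its neighbour in that way. Ptges, Ptgis and Hpgd held the last 3 ranks in every control. In knockout 3 and 4 Ptges2 moved to rank 2 and Ptgs2 to rank 4.

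The spread between libraries was larger among the knockouts. On log2(FPKM + 1) the SD was larger in the knockouts than in the controls for 8 of 9 members, Ptgs2 being the exception (0.51 against 0.58), and for 83.1% of all genes. The median SD of the members was 0.27 in controls and 0.65 in knockouts, against 0.18 and 0.42 for all genes. The highest knockout library differed between members, being knockout 1 for Ptgs2 and Ptges3, knockout 2 for Pla2g4a, Ptgs1, Hpgd and Ptger4, and knockout 3 for Ptges, Ptges2 and Ptgis.

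Compared with the 4 controls, the male knockout libraries 3 and 4 gave calls for 5 of the 9 members, in a fit where 44.4% of all genes passed. Ptgs2 (log2 fold change -1.43, limma adjusted p = 0.0197), Ptges3 (-1.03, adjusted p = 0.00571), Ptger4 (-1.03, adjusted p = 0.0126) and Pla2g4a (-0.81, adjusted p = 0.00852) fell, where 26.7% of all genes did, and Ptges2 (1.02, adjusted p = 0.00928) rose, where 17.6% did. Because knockout 1 and 2 are the only female libraries, a sex covariate gives the same fold changes by its construction and is no second result. It called the same 5 genes, where 34.2% of all genes passed. In the comparison of knockout 1 and 2 with the controls 0 of 9 members and 0.099% of all genes passed, and 2 members, Hpgd and Ptges, had an unadjusted p below 0.05, as did 16.2% of all genes. Pla2g4a stood at -0.14 and Ptger4 at -0.19 in that comparison (limma adjusted p = 0.708 for each). There Ptges3 stood at 0.34 and Ptges2 at -0.29, with signs opposite to those in knockout 3 and 4. The difference between the pairs of knockout libraries was not tested, and with sex it cannot be told apart.

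**Figure D3:**
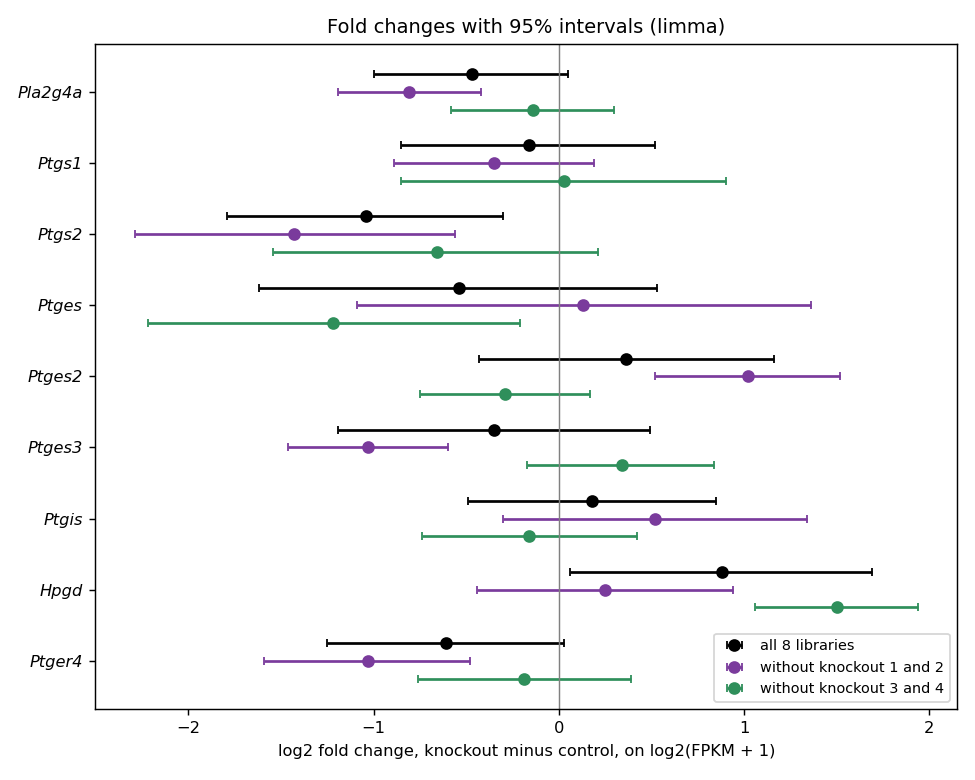
Log2 fold change (x axis, knockout minus control on log2(FPKM + 1)) of each member with its 95% limma interval, for all 8 libraries (black), without knockout 1 and 2 (purple) and without knockout 3 and 4 (green). Ptgs2 is left of zero in all 3 sets, at -1.04, -1.43 and -0.66, as are Pla2g4a and Ptger4, and Hpgd is right of it. Ptgs1, Ptges, Ptges2, Ptges3 and Ptgis change sides.

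The authors' deposited table gives its own comparison. It marks 1 of the 9 members down, Ptgs2, at a log2 fold change of -1.07 (adjusted p = 0.596), and 1 up, Hpgd, at 2.54 (adjusted p = 0.541). Over all genes, the authors' deposited table marks 3.37% down and 2.34% up. None of the 9 has an adjusted p below 0.05 in the authors' deposited table, where 0.375% of all genes do.

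Other genes of the route were read from lists, 52 measured in all, and none passed over all genes by limma (0 of 52, against 0.0778% of all genes). At an unadjusted p below 0.05 there were 11 (21.2%, against 19.2% of all genes), and limma-voom called 0, or 30 with sample weights (57.7%, against 53.1% of all genes). Of the 52, 4 were higher and 4 lower without overlap between the groups, against 4.76% and 6.86% of all genes. Over all genes 44.5% had higher and 55.5% lower knockout means, the background for the counts of direction that follow. In the list for release and rebinding of arachidonate, 8 of 9 measured genes had higher knockout means (median 0.29). The 9 include Anxa1, an annexin and not an enzyme, so the count does not stand for enzymes alone. Pla2g12a, a secreted phospholipase, read 4.24 to 5.5 FPKM in the controls and 5.71 to 6.94 FPKM in the knockouts, without overlap (limma adjusted p = 0.305). Acsl4, which couples arachidonate to coenzyme A, was at 22.4 ± 9.15 against 13.5 ± 7.72 FPKM (SD, n = 4 each), with knockout 3 and 4 lowest at 4.98 and 8.87 FPKM. Pla2g16, a phospholipase and acyltransferase, was at 3.4 ± 0.592 against 5.49 ± 2.17 FPKM, and the secreted Pla2g5 stayed at or below 1.24 FPKM.

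All 6 other terminal synthases and reductases had higher knockout means (median 0.44). Cbr1, a carbonyl reductase that can turn prostaglandin E2 into F2alpha, was the nearest to a call. It read 45.59, 44.2, 44.79 and 45.83 FPKM in the controls, against 69.94, 71.89, 68.23 and 91.74 FPKM in the knockouts. The groups did not overlap, and the log2 fold change of Cbr1 was 0.72 (SE 0.16, 95% interval 0.37 to 1.07, limma adjusted p = 0.108). It was of like size without knockout 3 and 4 (0.64) and without knockout 1 and 2 (0.80), and passed without knockout 2 (adjusted p = 0.0363), where 8.05% of all genes and 4 of the 52 (7.69%) did. Leaving out any other single library gave Cbr1 an adjusted p of 0.0994 to 0.392.

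The remaining synthases were less even. Akr1b3, an aldose reductase with prostaglandin F synthase activity, was at 24.4 ± 1.42 against 29.4 ± 6.08 FPKM. Tbxas1, the thromboxane synthase, read 1.77, 0.26, 0.28 and 0.16 FPKM in the controls, against 0.91, 2.31, 0.57 and 2.04 FPKM in the knockouts. It was highest in the 4 libraries with the highest macrophage marker sums, namely knockout 2, knockout 4, control 1 and knockout 1. The part of those cells in Tbxas1 was not tested. Ptgds, the lipocalin-type prostaglandin D synthase, was high in control 4 (10.35 FPKM), knockout 2 (9.22) and knockout 4 (6.25) and at 0.75 to 1.26 FPKM in the other libraries.

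Of the other prostanoid receptors 1 of 7 had a row. Ptger3, the EP3 receptor that lowers cyclic AMP, read 0.77, 1.3, 0.83 and 6.7 FPKM in the controls, against 0.23, 1.77, 0.37 and 0.82 FPKM in the knockouts (log2 fold change -0.69, limma adjusted p = 0.415). For transport and inactivation, 4 of 5 genes had lower knockout means (median -0.11). Ptgr1, a reductase that completes prostaglandin inactivation after Hpgd, was the exception, at 8.32 ± 2.2 against 13.8 ± 2.69 FPKM (SD, n = 4 each; log2 fold change 0.67, SE 0.21, limma adjusted p = 0.173). All 4 knockouts lay above the control median, and control 1, at 11.6 FPKM, overlapped with knockout 3, at 10.87 FPKM. Abcc4, an exporter of prostaglandins, was at 83.2 ± 25.9 against 61.2 ± 9.1 FPKM, Zadh2, a further prostaglandin reductase, at 23.6 ± 6.94 against 17.7 ± 5.53 FPKM, and Ptgr2 at 4.71 ± 0.37 against 4.34 ± 0.753 FPKM.

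In the lipoxygenase and cytochrome P450 arms, which use the same fatty acid, 6 of 8 measured genes had higher knockout means (median 0.23). Ephx1, the microsomal epoxide hydrolase, read 81.57 to 111.83 FPKM in the controls and 120.19 to 241.45 FPKM in the knockouts, without overlap (log2 fold change 0.83, SE 0.25, limma adjusted p = 0.164; 0.0357 without knockout 2, and 0.131 to 0.439 without any other single library). Lta4h, the leukotriene A4 hydrolase, read 13.88 to 15.22 against 16.07 to 18.84 FPKM, also without overlap (adjusted p = 0.316), and its log2 fold change of 0.26 was 0.56 after the length and GC correction. Alox5ap, the 5-lipoxygenase activating protein of leukocytes, read 1.51, 0.04, 0.16 and 0.2 FPKM in the controls, against 1.91, 5.86, 0.53 and 2.37 FPKM in the knockouts, highest in the same 4 libraries as the macrophage markers. The leukotriene receptor Cysltr1 was at 0.903 ± 0.411 against 0.346 ± 0.0964 FPKM (adjusted p = 0.239).

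**Figure D4:**
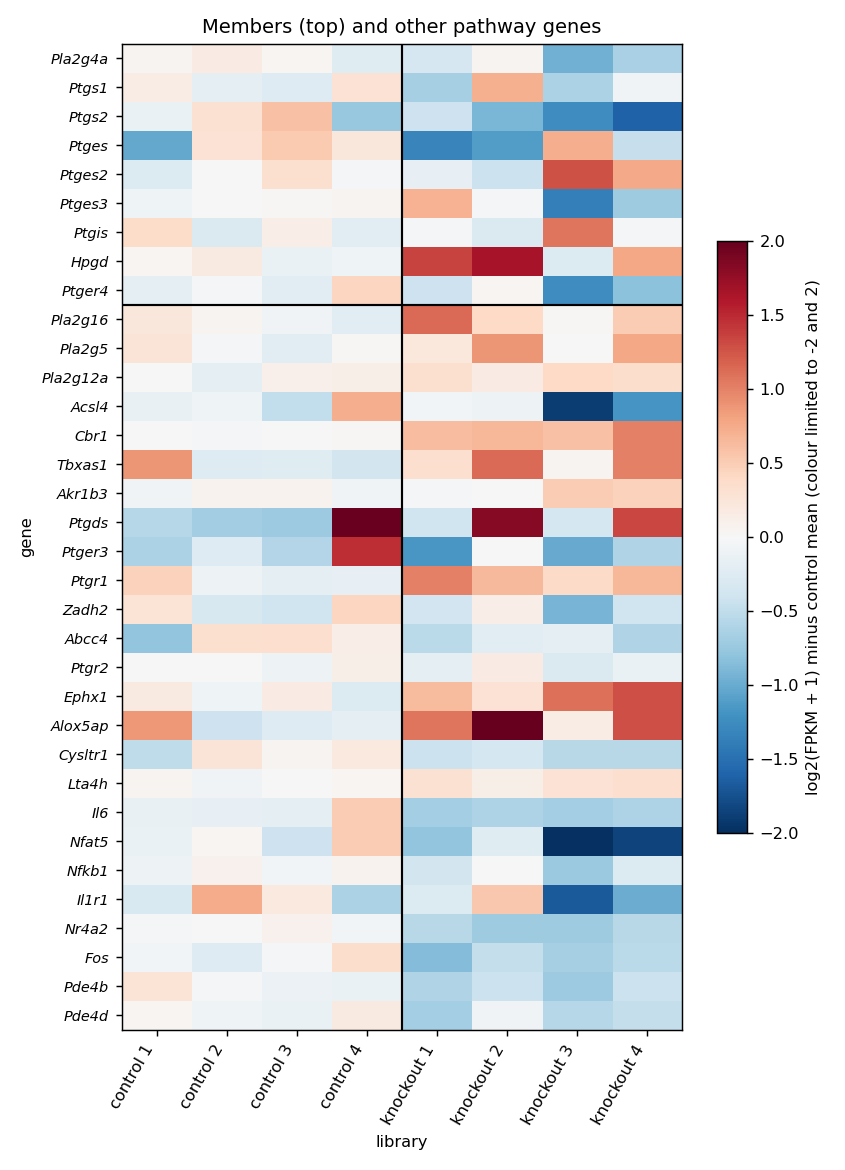
Rows are the 9 members (above the line) and 25 other genes of the route, columns the 8 libraries, and colour the log2(FPKM + 1) of a library minus the control mean, with red for higher and blue for lower. Cbr1 and Ephx1 are red and Nr4a2, Fos and Pde4b blue in all 4 knockout columns, while Ptges2 and Nfat5 are strongest in knockout 3 and 4.

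Of 13 genes linked to the induction of Ptgs2 and Ptges none passed, and 9 (69.2%) had lower knockout means, where 55.5% of all genes did (medians -0.09 and -0.06). The 13 include an inhibitor of NF-kB, so the count does not stand for inducers alone. Il6, the cytokine, read 0.45, 0.43, 0.39 and 1.28 FPKM in the controls and was listed at 0 or at 0.05 FPKM in the knockouts (limma adjusted p = 0.154). These levels are near the lower end of the table, and the filter on low values left Il6 out. Nfat5, the tonicity factor that drives Ptgs2 in the renal medulla, read 10.18 to 20.18 FPKM in the controls, against 7.59, 11.59, 2.18 and 3.11 FPKM in the knockouts. Its log2 fold change was -1.28 (SE 0.42, limma adjusted p = 0.182; 0.0383 without knockout 2, and 0.137 to 0.439 without any other single library), and -0.58 after the length and GC correction. Nfkb1, a subunit of NF-kB, was at 16.6 ± 1.05 against 13.1 ± 2.9 FPKM, and the interleukin-1 receptor Il1r1 at 5.99 ± 2.98 against 4.06 ± 3.27 FPKM (SD, n = 4 each).

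Genes that respond to cyclic AMP, the second messenger of the EP4 receptor, were lower in 9 of 10 measured cases (median -0.5, against -0.06 for all genes). Of all genes 55.5% had lower knockout means. Without knockout 1 and 2 the list held 6 lower and 4 higher genes (median -0.45, against -0.11 for all genes). Without knockout 3 and 4 it held 9 lower and 1 higher (median -0.46, against 0.0 for all genes). The groups did not overlap in 3 of the 10, all lower, where 6.86% of all genes were lower without overlap. Nr4a2, an orphan nuclear receptor, read 2.0, 2.1, 2.25 and 1.96 FPKM in the controls, against 1.1, 0.88, 0.88 and 1.1 FPKM in the knockouts. Its log2 fold change was -0.63 (SE 0.15, limma adjusted p = 0.122), between -0.66 and -0.6 when any single library was left out, with an adjusted p of 0.0444 without knockout 2, where 8.05% of all genes passed, and of 0.113 to 0.419 without any other. Fos, the immediate early transcription factor, was at 4.69 ± 1.05 against 2.64 ± 0.434 FPKM. Pde4b, a phosphodiesterase that degrades cyclic AMP, was at 2.36 ± 0.472 against 1.3 ± 0.224 FPKM (SD, n = 4 each; limma adjusted p of 0.164 and 0.176), and Pde4d was at 1.17 ± 0.217 against 0.606 ± 0.312 FPKM. After the length and GC correction the log2 fold changes of Pde4b and Pde4d, -0.55 and -0.45 before it, were -0.07 and -0.05, while Fos stood at -0.84 and Nr4a2 at -0.56. These genes also respond to other signals, serum among them. The list was chosen with earlier results of these data known, so its counts are no test of EP4 signalling, which was not tested.

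Genes with the most similar pattern were sought for the 3 members whose log2(FPKM + 1) spanned at least 2 units, by the root mean square difference over 8 libraries after centring each gene. For Ptgs2 (span 2.2) they were Map3k20 (0.25), Htr1b (0.25) and Gm45004 (0.26). Map3k20, a stress-activated kinase, read 21.31, 29.3, 28.04 and 13.45 FPKM in the controls, against 22.8, 12.26, 9.33 and 10.45 FPKM in the knockouts, low in control 4 like Ptgs2. For Ptges (span 2.06) they were Il24 (0.2), Slc45a3 (0.23) and Padi1 (0.23). Il24, a cytokine of the interleukin-10 family, read 0.75, 3.05, 3.49 and 4.12 FPKM in the controls, against 0.59, 0.6, 3.5 and 1.39 FPKM in the knockouts, low in control 1 and high in knockout 3 like Ptges. For Ptges3 (span 2.06) they were C1galt1c1 (0.06), Fxr1 (0.08) and Ccnc (0.08), all high in knockout 1 and low in knockout 3 and 4.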

How the data were processed

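RNA of 8 mouse libraries (4 control, 4 knockout) was sequenced. Per the submitters' processing notes FastQC, STAR 2.4.1d, DESeq2 and GRCm38 were used; the counter, the annotation and the choice of rows are not stated. The authors deposited FPKM for 14145 genes, with their log2 fold change, p-value and adjusted p-value. The table is named as raw counts, but its values carry decimals. Multiplied by exon-union length (GENCODE M21, 14134 genes), 95.0% to 95.5% of values of up to 200 reads lay within 0.05 of a whole read, which gave the depths. Intervals cover the spread between libraries; read numbers carry counting error besides.

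Genotypes were compared on log2(FPKM + 1) by limma 3.58.1 (R 4.3.3), a variance trend, genotype alone and Benjamini-Hochberg adjustment over all genes. This scale understates changes of low genes. The script was tested on simulated data that gave both groups the spread of the controls, so the wider knockout spread was not covered. Named genes are the members, Aldh2, up to 4 genes of each pathway list by lowest p, and the 3 most similar genes of widely varying members. Members and lists were chosen with earlier results of these data known. Other genes named are marker genes, genes that overlap a member and a pseudogene. Alternatives were other pseudocounts, a low-value filter, no trend, a sex covariate, median-ratio scaling, a replicate block, limma-voom on recovered reads, removal of the length and GC trend (lowess, span 0.3) and left-out libraries. Libraries within a group differed beyond sampling error (chi-square of at least 12.0 per gene). Same-numbered libraries did not deviate together in all pairs, so the numbers were not taken to pair them. Python 3.11.15, pandas 2.3.3, numpy 2.4.6, statsmodels 0.14.6 and matplotlib 3.10.9 were used.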

Additional observations from a re-analysis of the deposited data

Results flagged for a closer look

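Of 68 groups of 4 libraries (34 genes, 2 groups each), 8 held a library set apart, its gap to the nearest of the other 3, as a share of the range of the group, being over the 95% limit of Dixon's test. By that limit chance sets apart about 1 group in 20, and the genes were not drawn at random. Among the members this was Ptgis in knockout 3, at 1.79 FPKM against 0.09 to 0.3 FPKM in the other knockouts. Control 4 stood apart for Ptgds (10.35 FPKM against 0.75 to 0.95), Ptger3 (6.7 against 0.77 to 1.3) and Il6 (1.28 against 0.39 to 0.45). Control 1 stood apart for Tbxas1 (1.77 FPKM against 0.16 to 0.28), Alox5ap (1.51 against 0.04 to 0.2) and Ptgr1 (11.6 against 6.99 to 7.51). Control 1 also had the highest macrophage marker sum of the controls, and the part of such cells was not tested. Cbr1 stood apart in knockout 4, at 91.74 FPKM against 68.23 to 71.89 FPKM.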

How the results depend on the processing

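The number of genes called over the whole table, 11 in the main analysis, was 3 with a pseudocount of 0.1, 7 by limma-voom, 2 after the length and GC correction, 4838 with the sex covariate, 7504 by limma-voom with sample weights and 6275 without knockout 1 and 2. With the replicate number as a block it was 1, and the block called no member and no pathway gene. Deviations of same-numbered libraries correlated at 0.04, -0.2, 0.56 and -0.06, and not every library matched its own number best. Leaving out single libraries gave 1 to 1139 genes, the highest without knockout 2 and 3 without knockout 3. Members called numbered 5 with the sex covariate, with sample weights and without knockout 1 and 2, and 0 in every other analysis. Pathway genes called were 12, 30 and 18 in the same analyses, and 0 to 4 with single libraries left out. Signs turned for Ptgs1 (0.00 with sample weights, 0.03 without knockout 3 and 4; -0.45 to 0.0 with single libraries left out), Ptges (0.13 with the sex covariate and without knockout 1 and 2), and Ptgis (-0.08 after the length and GC correction, -0.16 without knockout 3 and 4, and -0.12 to 0.33 with single libraries left out). Without knockout 3 and 4 they also turned for Ptges2 (-0.29), Ptges3 (0.34), Akr1b3 (-0.02) and Il1r1 (0.14), and after the length and GC correction for Ptgr2 (0.20) and Nfkb1 (0.19). The cause was not tested. Among the members counting error weighs most on Ptgis and Hpgd, which rest on 2 to 91 reads per library. The filter on low values left out Ptgis and Hpgd. Of the pathway genes named here it left out Pla2g5, Tbxas1, Ptger3, Cysltr1 and Il6.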

Other observations

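Scnn1b, a subunit of the epithelial sodium channel of the collecting duct, was picked after its values were seen, because its libraries fell in an order like that of Ptges. Scnn1b read 1.83, 5.3, 5.26 and 6.94 FPKM in control 1 to 4, against 0.06, 0.49, 6.9 and 2.99 FPKM in knockout 1 to 4. Both genes were low in control 1 and in knockout 1 and 2 and highest among the knockouts in knockout 3, with a root mean square difference of 0.42 on log2(FPKM + 1) over 8 libraries. The 5 measured collecting duct markers summed to 30.4, 42.7, 43.2 and 35.6 FPKM in the controls and to 9.28, 7.61, 34.0 and 23.5 FPKM in the knockouts, and Aqp2 had no row. Not all of them ran this way: Hsd11b2, a steroid dehydrogenase of the same cells, was highest in control 1, at 21.53 FPKM, against 6.08 to 13.04 FPKM in the other controls. The part of collecting duct cells in the Ptges level was not tested.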
